A study of Homo sapiens with 4 samples.

Results

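The genes described here are 10 regulators of G1, the phase in which a cell decides whether to copy its DNA. They were chosen by name and comprise the transcription factors MYC and E2F1, the D-type cyclins CCND1, CCND2 and CCND3, the E-type cyclins CCNE1 and CCNE2, and the CIP/KIP inhibitors CDKN1A, CDKN1B and CDKN1C. All 10 were found among the 56655 gene symbols of the count tables, and all 10 passed the expression filter that 16417 genes passed. RNA-seq had been performed in OVCAR5, an established human ovarian cancer cell line labelled as high grade serous, stably transduced with a nontargeting control hairpin (shCtrl, n = 2 libraries) or with a hairpin against the transcription factor gene FOXK2 (shFOXK2, n = 2 libraries). Both kinds of cells carried a lentiviral vector and were selected with puromycin. The study's legends name 1 FOXK2 hairpin for these libraries, so an effect of FOXK2 and an effect of that hairpin's other targets cannot be told apart.

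D-type cyclins bind CDK4 and CDK6, and E-type cyclins bind CDK2. These kinases phosphorylate the RB protein, which then releases the E2F factors that switch on the genes of S phase. The CIP/KIP proteins p21 (CDKN1A), p27 (CDKN1B) and p57 (CDKN1C) bind cyclin-CDK complexes and restrain CDK2, and the INK4 proteins block CDK4 and CDK6. MYC pairs with MAX to drive genes of ribosome production and growth, and the MXD proteins and MNT compete with it for MAX.

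The 4 libraries held 14284005 to 21950873 counts, and 3 counts, the floor used here, corresponded to 0.134 to 0.211 CPM, the normalised count relative to library size after scaling by the trimmed mean of M values (TMM). The floor covers counting error only. FOXK2, the targeted gene, measured 80.5 and 93.4 CPM in the shCtrl libraries and 76.3 and 59.6 CPM in the shFOXK2 libraries. The groups did not overlap, with FOXK2 lower in shFOXK2, yet the log2 fold change of −0.36 (adjusted p = 0.258, SE 0.25) did not pass the test. It was −0.06 and −0.02 for FOXK2 after a smooth trend of counts on transcript GC or A content was removed from each library. A lower FOXK2 transcript level in the libraries labelled shFOXK2 was therefore not established by these counts. The study reported lower FOXK2 mRNA by qRT-PCR and lower FOXK2 protein by Western blot in shFOXK2 OVCAR5 cells. FOXK2 shares 1190 exonic bases with an annotated lncRNA on the opposite strand. Epithelial markers were present, with KRT8 between 1860 and 2690 CPM. Of 8 such markers 2 (25%) fell, against 22.8% of all tested genes, and 0 rose, against 25.8%. Those that fell were CLDN4 and CDH1, the latter from 20.6 and 16.2 to 0.914 and 1.32 CPM. Of 8 ovarian serous markers 4 were tested, of which 3 (75%) fell and 1 (25%) rose, against 22.8% and 25.8% of all tested genes. PAX8 (log2 fold change −0.88, from 15.7 and 20.9 to 11 and 8.9 CPM), FOLR1 (−1.42) and MUC16 (−5.76, from 17.8 and 9.03 to 0 and 0.439 CPM) fell and MSLN (1.10) rose, while WT1, ESR1, EMX2 and SOX17 had at most 3 counts in any library. Of 8 gastrointestinal markers 5 were tested, of which 1 (20%) fell and 1 (20%) rose, close to the shares over all tested genes. KRT20 fell from 210 and 234 to 128 and 148 CPM and LGALS4 rose (3.13, from at most 3 to at most 16 counts). CDX2 measured 10.3 and 13.3 CPM in shCtrl and 8.86 and 6.87 CPM in shFOXK2 and did not pass, and CDX1 and TFF3 were at 0 in every library. The summed level of 10 stromal, immune and endothelial markers was 45 and 46.8 CPM in shCtrl and 25.9 and 24.6 CPM in shFOXK2. Of these markers 4 were tested, and CD14, PECAM1 and PDGFRB fell (75%, against 22.8% of all tested genes). COL1A1 measured 14.5 and 13.4 CPM in shCtrl and 15.9 and 12.6 CPM in shFOXK2 and did not pass (0.03, adjusted p = 0.951). PTPRC, CD3E and DCN had 3 counts or fewer in every library. The part of these markers in the results below was not tested.

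Of the 10 G1 regulators, 5 (50%) had an adjusted p under 0.05 in the edgeR comparison of shFOXK2 with shCtrl. MYC, CDKN1A, CDKN1B and CDKN1C were lower in shFOXK2 cells and CCNE2 was higher. Over all tested genes 48.6% were called, 22.8% lower and 25.8% higher, so the share of regulators called was close to that of any gene. Nonoverlapping groups were seen for 9 of the 10, 6 lower and 3 higher, against 75.4% of all tested genes (36.2% lower and 39.2% higher). Adjusted p values below are over all 16417 genes, and log2 fold changes are of shFOXK2 over shCtrl. The gene lists below were chosen with earlier results of these data known, so their shares are descriptions and not independent support. With bulk RNA, fewer cells in a phase and less transcript in each cell cannot be told apart.

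**Figure D1:**
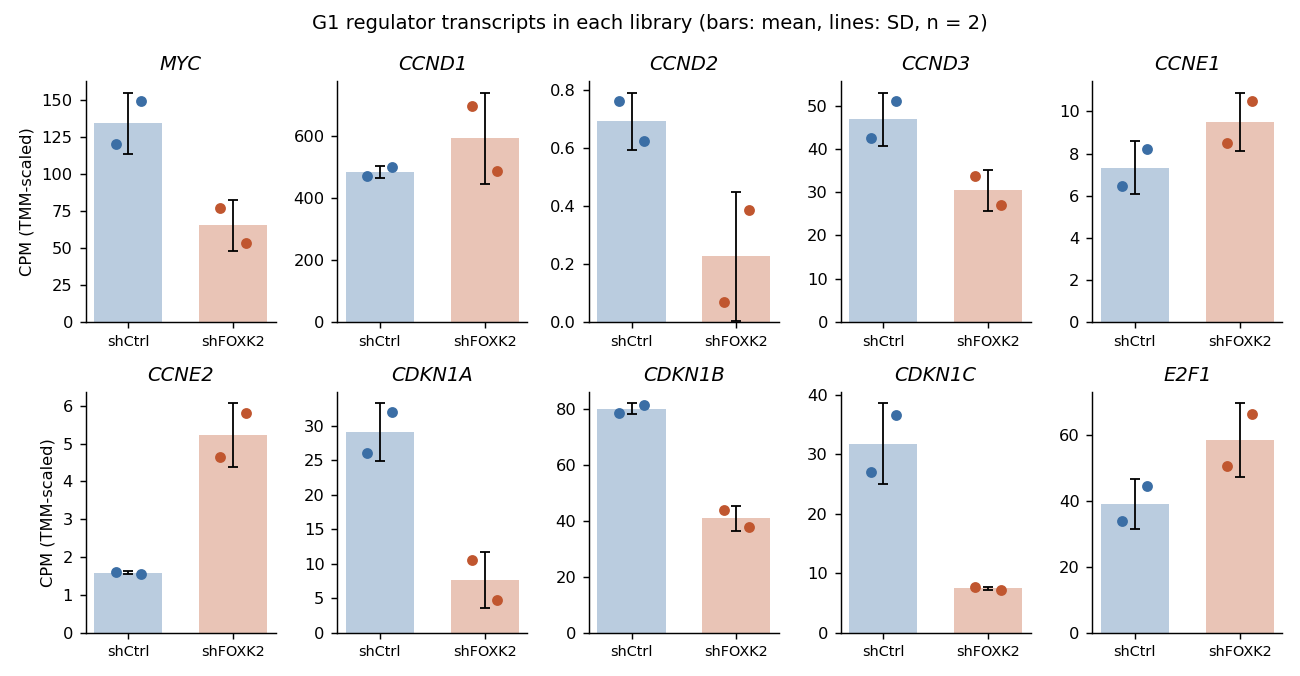
Level of each of the 10 G1 regulators in CPM (vertical axes from 0, each on its own scale) in shCtrl (blue) and shFOXK2 (orange) libraries; points are single libraries, bars are means and lines are SD (n = 2). The groups overlap for CCND1 alone, and CDKN1C falls from 27 and 36.6 to 7.66 and 7.25 CPM.

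All 3 CIP/KIP inhibitor transcripts fell in shFOXK2 cells. CDKN1C, whose product p57 restrains growth in development (ENSG00000129757.15, hg38 chromosome 11, 2883213 to 2885775, minus strand), measured 27 and 36.6 CPM in shCtrl and 7.66 and 7.25 CPM in shFOXK2. The shFOXK2 libraries were close to each other and far below both controls, at 23.4% of the shCtrl mean. The log2 fold change was −2.09 (adjusted p = 6.53e-05, SE 0.29). CDKN1A, the inhibitor p21 of stressed and differentiating cells (ENSG00000124762.14, chromosome 6, 36676460 to 36687337, plus strand), measured 26.1 and 32 CPM in shCtrl and 10.5 and 4.78 CPM in shFOXK2. Both shFOXK2 libraries were lower than both controls. The log2 fold change of CDKN1A was −1.94 (adjusted p = 0.000651, SE 0.36). Without shFOXK2 replicate 1 the CDKN1A value was −2.60, and without shFOXK2 replicate 2 it was −1.51. CDKN1B, the quiescence-linked inhibitor p27 (ENSG00000111276.12, chromosome 12, 12685498 to 12722369, plus strand), measured 78.8 and 81.5 CPM in shCtrl and 43.9 and 37.9 CPM in shFOXK2. Replicates agreed closely in both groups, and shFOXK2 stood at 51% of shCtrl, a log2 fold change of −0.97 (adjusted p = 0.00515, SE 0.25). CDKN1C had no overlapping gene in the annotation used. CDKN1A overlaps the antisense DINOL over 146 exonic bases, and CDKN1B overlaps GPR19 with no shared exonic base. Tested genes within 5 Mb had median log2 fold changes of −0.45 for CDKN1A (quartiles −1.17 and 0.29) and −0.07 for CDKN1B (−0.78 and 1.26). For CDKN1C the median was −0.09 (−0.67 and 0.68).

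The promoters of CDKN1A and CDKN1B, which fell together, are shown with that of E2F1, which did not pass the test. Each is the 250 bases before the RefSeq start of the gene on GRCh38.p14, read on the gene's strand, and the window searched for motifs ran 50 bases further. Capitals mark matches on either strand to GGGCGG (the GC box) and TTTNGCGC (an E2F motif).
CDKN1A: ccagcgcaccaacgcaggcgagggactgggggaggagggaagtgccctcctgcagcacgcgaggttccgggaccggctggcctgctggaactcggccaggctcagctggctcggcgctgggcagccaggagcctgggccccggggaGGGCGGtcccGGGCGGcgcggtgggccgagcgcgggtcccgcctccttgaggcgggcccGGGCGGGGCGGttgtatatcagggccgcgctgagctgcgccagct
CDKN1B: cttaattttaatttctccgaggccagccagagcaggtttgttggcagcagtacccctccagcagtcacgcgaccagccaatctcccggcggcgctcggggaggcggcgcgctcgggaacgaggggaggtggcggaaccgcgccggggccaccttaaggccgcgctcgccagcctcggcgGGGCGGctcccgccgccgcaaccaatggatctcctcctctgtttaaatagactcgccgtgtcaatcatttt
E2F1: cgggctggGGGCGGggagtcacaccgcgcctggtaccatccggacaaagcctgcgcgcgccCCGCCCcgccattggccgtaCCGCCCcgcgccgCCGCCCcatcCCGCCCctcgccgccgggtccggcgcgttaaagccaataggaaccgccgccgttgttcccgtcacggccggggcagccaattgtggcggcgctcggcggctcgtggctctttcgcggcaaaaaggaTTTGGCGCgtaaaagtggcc
These lie at chr6:36678464-36678713 (plus strand), chr12:12717118-12717367 (plus strand) and chr20:33686386-33686635 (minus strand). RefSeq windows were matched for 5 of the 10 genes, with 3 windows for CCND3. MYC, CCND1, CCND2, CCNE2 and CDKN1C had no window here and were not searched for any motif. The GC box was found 4 times in the CDKN1A window, at −104, −94, −45 and −40 from the start with the last pair overlapping, and 1 time in that of CDKN1B, at −71. The E2F1 window held 6, of which 1 at 27 lies past the printed stretch. The CCNE1 window held 7, and the 3 CCND3 windows held 5, 4 and 0. The GC box occurs in 45% of all 35116 windows of this length. The E2F motif was found only in the E2F1 window among these genes, at −20, and occurs in 1.79% of all windows. The forkhead motif GTAAACA, searched on both strands, was matched in 1 CCND3 window, at −2, and occurs in 3.42% of all windows. The E-box CACGTG, the letters bound by MYC and MAX, was matched in no window of these genes and occurs in 7.26% of all windows.

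MYC transcript fell 2.06-fold. MYC (ENSG00000136997.22, chromosome 8, 127735434 to 127742951, plus strand) measured 120 and 149 CPM in shCtrl and 77.2 and 53.2 CPM in shFOXK2. Both shFOXK2 libraries were below both controls, with a mean of 65.2 ± 17 against 134 ± 20.9 CPM (SD, n = 2 each). The log2 fold change was −1.05 (adjusted p = 0.00448, SE 0.26). The 33 tested genes within 5 Mb on either side of MYC had a median log2 fold change of 0.54 (quartiles −0.30 and 1.72). The part of the chromosome region in the MYC value was not tested. CASC11, which overlaps MYC on the opposite strand, had at most 7 counts in any library.

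Other members of the MYC network were lower or did not pass the test. Of 11 tested network genes 4 fell and 0 rose (1 rose without shCtrl replicate 1, without shCtrl replicate 2 or without shFOXK2 replicate 1). The 36.4% that fell stand beside 22.8% of all tested genes, with a median log2 fold change of −0.57 against 0.04 over all tested genes. MXI1, a MAX partner that opposes MYC, measured 28.6 and 28.3 CPM in shCtrl and 5.69 and 10.1 CPM in shFOXK2, a log2 fold change of −1.84 (adjusted p = 0.000313, SE 0.32). MXD4, of the same repressor family and named here after its values were seen, went from 153 and 179 to 14.8 and 29.4 CPM, a log2 fold change of −2.90 (SE 0.32). Both repressors were thus lower in the libraries where MYC was lower. MYCL, a MYC paralog, had a log2 fold change of −1.49 (adjusted p = 0.0132) from 1.88 and 1.99 CPM to 0.773 and 0.604 CPM. MYCL was not called by DESeq2 (adjusted p = 0.0761). MXD1 had −0.87 (adjusted p = 0.0493), a call that was lost by DESeq2 (adjusted p = 0.0803), with the A-content offset (−0.60), without shCtrl replicate 1 (−0.65), without shCtrl replicate 2 (−1.09) or without shFOXK2 replicate 1 (−0.72). MAX had −0.50 (adjusted p = 0.117) and MNT −0.57 (adjusted p = 0.0894). MYCN, with counts of 7 and 8 in the controls and of 0 and 1 in shFOXK2, was not tested.

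Transcripts of MYC target genes were mostly higher in the same libraries in which MYC was lower. Of 25 such genes, most of them for nucleolar and ribosome assembly proteins, 19 (76%) rose and 0 fell, where 25.8% of all tested genes rose. Their median log2 fold change was 1.27, against 0.04 over all tested genes. As the list was chosen with earlier results of these data known, its share is a description. NCL, which encodes the nucleolar protein nucleolin, measured 635 and 590 CPM in shCtrl and 1410 and 1360 CPM in shFOXK2. Replicates of NCL lay close together and the groups far apart, with a log2 fold change of 1.17 (adjusted p = 0.000794, SE 0.23). ODC1, the first enzyme of polyamine synthesis, measured 116 and 148 CPM in shCtrl and 441 and 195 CPM in shFOXK2. Its log2 fold change of 1.27 (adjusted p = 0.00585, SE 0.33) leaned on 1 library, since without shFOXK2 replicate 1 it was 0.56 (adjusted p = 0.137). ODC1 was also no longer called without shCtrl replicate 1, at 1.06 (adjusted p = 0.0969). The 6 targets that did not pass were CAD, NOLC1, POLR1B, HK2, FARSA and AIMP2.

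**Figure D2:**
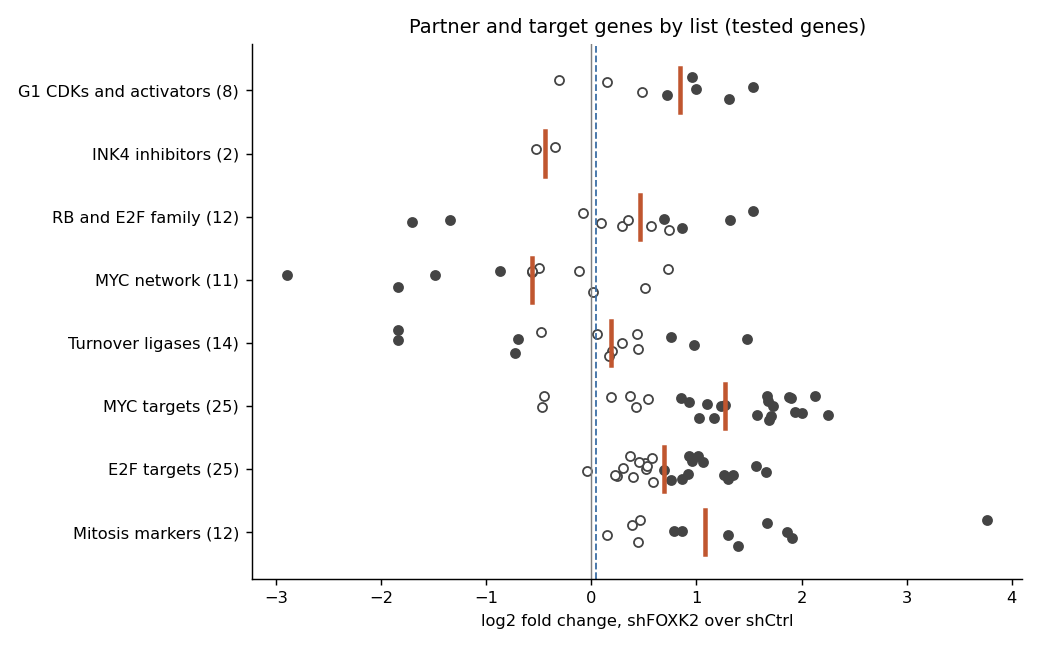
Log2 fold change of shFOXK2 over shCtrl (horizontal axis) for each tested gene of 8 lists; filled points have an adjusted p under 0.05, open points do not, orange lines are list medians, the dashed blue line is the median of all tested genes and numbers of tested genes are in parentheses. MYC targets centre at 1.27 and E2F targets at 0.69, while the MYC network centres at −0.57.

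Among the D-type cyclins no transcript passed the test. CCND1, the most abundant of them (ENSG00000110092.4, chromosome 11, 69641156 to 69654474, plus strand), measured 472 and 499 CPM in shCtrl and 697 and 487 CPM in shFOXK2. CCND1 shares 497 exonic bases with LTO1 on the opposite strand. The second shFOXK2 library lay between the controls, so the groups overlapped. The log2 fold change of CCND1 was 0.29 (95% interval −0.23 to 0.80, adjusted p = 0.347). CCND3 (ENSG00000112576.13, chromosome 6, 41934934 to 42050357, minus strand) measured 42.4 and 51.1 CPM in shCtrl and 33.7 and 27.1 CPM in shFOXK2. Both shFOXK2 libraries were lower, with a log2 fold change of −0.62 (95% interval −1.18 to −0.06, unadjusted) and an adjusted p of 0.0644. Without shCtrl replicate 1 CCND3 was called, at −0.79 (adjusted p = 0.0275). CCND2 (ENSG00000118971.9, chromosome 12, 4269771 to 4305353, plus strand) was near the floor, with counts of 17 and 10 in the controls and of 1 and 7 in shFOXK2. Its log2 fold change of −1.50 (adjusted p = 0.0716, SE 0.65) became −3.23 (adjusted p = 0.018) when shFOXK2 replicate 2 was left out. With shFOXK2 replicate 1 left out it was −0.85, so the size of a difference could not be fixed at these counts. Tested genes within 5 Mb had median log2 fold changes of −0.08 for CCND1 (quartiles −0.75 and 0.55) and −0.30 for CCND2 (−0.98 and 0.53). For CCND3 the median was −0.44 (−1.06 and 0.08).

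CCNE2 was the only one of the 10 regulators called higher, and E2F1 and CCNE1 had positive values that did not pass. CCNE2, an E-type cyclin under E2F control (ENSG00000175305.18, chromosome 8, 94879770 to 94896678, minus strand), was counted 36 and 25 times in the controls and 66 and 106 times in shFOXK2. As levels these were 1.61 and 1.56 CPM against 4.64 and 5.82 CPM, with replicates together and groups apart. The log2 fold change was 1.72 (adjusted p = 0.00158, SE 0.37). The call ended with either composition offset. CCNE2, whose canonical transcript is 33.3% A, then had 0.44 with the offset on A content (adjusted p = 0.29) and 0.65 with that on GC content (adjusted p = 0.142). Its exons overlap 1629 exonic bases of INTS8 on the opposite strand, and INTS8 was 25.6 and 18.4 CPM in shCtrl and 65 and 49.2 CPM in shFOXK2. The 41 tested genes within 5 Mb of CCNE2 had a median log2 fold change of 1.14 (quartiles 0.46 and 2.14). The part of composition, INTS8 or the chromosome region in the CCNE2 value was not tested further.

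CCNE1 (ENSG00000105173.14, chromosome 19, 29811991 to 29824312, plus strand) measured 6.45 and 8.22 CPM in shCtrl and 8.51 and 10.5 CPM in shFOXK2. The lowest shFOXK2 library was barely above the highest control, and the log2 fold change was 0.38 (95% interval −0.29 to 1.05, adjusted p = 0.339). E2F1, the founding activator E2F (ENSG00000101412.13, chromosome 20, 33675477 to 33686385, minus strand), measured 33.9 and 44.6 CPM in shCtrl and 50.5 and 66.4 CPM in shFOXK2. Both shFOXK2 libraries were higher, with a log2 fold change of 0.58 (SE 0.27) and an adjusted p of 0.089. Without shCtrl replicate 2 E2F1 was called, at 0.79 (adjusted p = 0.0397). With the A-content offset E2F1, CCNE1 and CCND1 were each called higher, at 0.93, 0.72 and 0.62 (adjusted p = 0.00908, 0.0424 and 0.0285). That offset moved the median of all tested genes up by 0.15. The 89 tested genes within 5 Mb of E2F1 had a median log2 fold change of −0.79 (quartiles −1.20 and −0.26). The 31 within 5 Mb of CCNE1 had a median of 0.21 (−0.59 and 0.63).

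**Figure D3:**
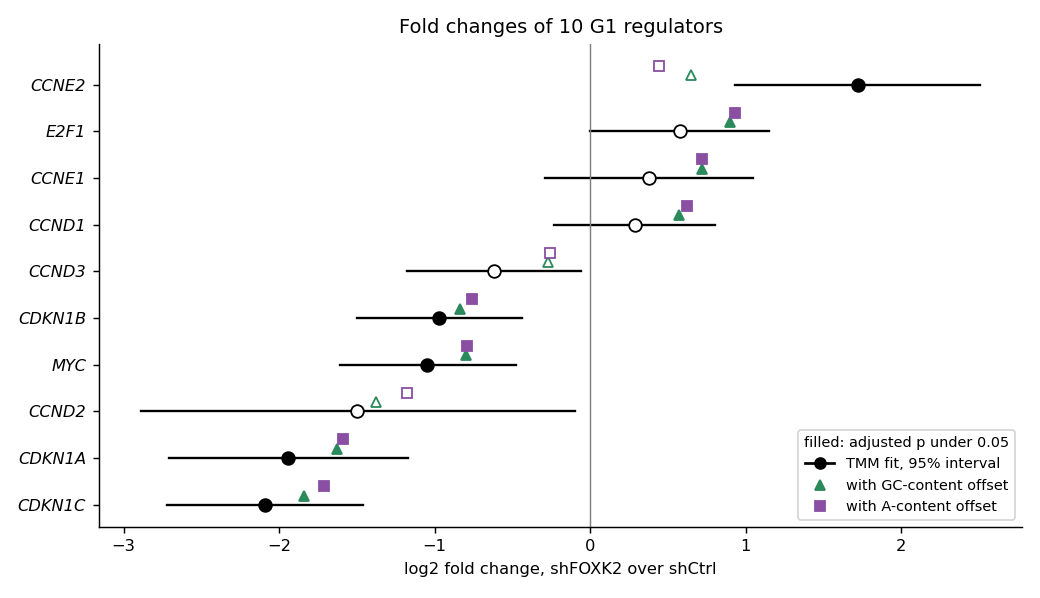
Log2 fold change of shFOXK2 over shCtrl (horizontal axis) for the 10 G1 regulators, with the TMM fit as circles and its unadjusted 95% interval as lines, the GC-content offset as triangles and the A-content offset as squares; filled symbols have an adjusted p under 0.05. CDKN1A, CDKN1B, CDKN1C and MYC stay filled in all 3 fits, whereas CCNE2 moves from 1.72 to 0.65 and 0.44.

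Of the kinases that these cyclins activate, CDK6 was higher and CDK2 and CDK4 did not pass the test. Of 8 G1 kinases and activators 5 (62.5%) rose, against 25.8% of all tested genes, and 0 fell, with a median log2 fold change of 0.84 against 0.04 over all tested genes. CDC25A, the phosphatase that removes inhibitory phosphates from CDK2, measured 8.88 and 11.2 CPM in shCtrl and 26.3 and 23.6 CPM in shFOXK2, a log2 fold change of 1.31 (adjusted p = 0.00166, SE 0.28). CDK6 measured 78.9 and 19.3 CPM in shCtrl and 140 and 146 CPM in shFOXK2, so the controls differed widely. Its log2 fold change of 1.54 (adjusted p = 0.0121, SE 0.45) was 2.85 without shCtrl replicate 1 and 0.86 without shCtrl replicate 2, and it was not called by DESeq2 (adjusted p = 0.144). CDK2 had a log2 fold change of 0.48 (adjusted p = 0.138), or 0.84 (adjusted p = 0.00515) with the A-content offset, and CDK4 one of −0.31 (adjusted p = 0.393). Also higher were CCNH and MNAT1, which activate CDKs together with CDK7, and CDC37, which delivers kinases to HSP90, the 3 being named after their values were seen. Without shFOXK2 replicate 2 the number of higher genes of this list was 3.

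The INK4 inhibitors did not differ detectably. CDKN2A and CDKN2B had 0 counts in each of the 4 libraries, which allows a level of up to 0.134 to 0.211 CPM. CDKN2C measured 28.3 and 34.6 CPM in shCtrl and 23.7 and 25.8 CPM in shFOXK2 (log2 fold change −0.35, adjusted p = 0.292). CDKN2D had a log2 fold change of −0.53 (adjusted p = 0.255), which became −1.19 (adjusted p = 0.015) without shFOXK2 replicate 2.

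Of 12 genes of the RB and E2F family 4 (33.3%) rose and 2 (16.7%) fell, close to the 25.8% and 22.8% of all tested genes. RBL2, which encodes the RB relative p130 of quiescent cells, measured 75.3 and 54.5 CPM in shCtrl and 19.4 and 20.2 CPM in shFOXK2, a log2 fold change of −1.71 (adjusted p = 0.000172, SE 0.27). RBL1, which encodes its relative p107, measured 16.1 and 6.17 CPM in shCtrl and 29.9 and 25.9 CPM in shFOXK2. RBL1 thus lay on the other side of the controls from RBL2, with a log2 fold change of 1.32 (adjusted p = 0.0108, SE 0.38), or 0.79 (adjusted p = 0.052) without shCtrl replicate 2 and 2.13 without shCtrl replicate 1. E2F2, an activator, rose from 6.63 and 9.16 to 17.8 and 27.9 CPM, a log2 fold change of 1.54 (adjusted p = 0.00127, SE 0.32). The repressors E2F7 and E2F8 had log2 fold changes of 0.69 and 0.86 (adjusted p = 0.0454 and 0.0285). E2F7 lost its call whichever library was left out, at 0.62 and 0.71 without shCtrl replicate 1 and 2 and at 0.52 and 0.80 without shFOXK2 replicate 1 and 2. E2F8 lost its call without shCtrl replicate 2 (0.70) or shFOXK2 replicate 2 (0.71), and with the A-content offset E2F8 was at 0.43 (adjusted p = 0.147). RB1 itself was at 0.29 (adjusted p = 0.508), E2F3 at 0.57 (adjusted p = 0.0796) and E2F4 at 0.35 (adjusted p = 0.258). With the A-content offset E2F3 (0.75) and E2F4 (0.69) were called higher. RB1 changed sign to −0.20 without shCtrl replicate 2 and was called higher, at 1.02, without shCtrl replicate 1. TFDP2, a partner of E2F proteins named after its values were seen, fell from 56.7 and 56.4 to 16 and 28.2 CPM. The number of higher genes was 1 without shCtrl replicate 2 and 2 without shFOXK2 replicate 2.

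Genes that E2F factors switch on at the start of S phase were higher or did not pass. Of 25 such genes 13 (52%) rose, against 25.8% of all tested genes, and 0 fell, with a median log2 fold change of 0.69 against 0.04 over all tested genes. CCNA2, the cyclin that follows cyclin E, measured 44.4 and 34.1 CPM in shCtrl and 84.1 and 65.2 CPM in shFOXK2. Its log2 fold change was 0.92 (adjusted p = 0.0101, SE 0.27), and 0.73 (adjusted p = 0.0773) without shFOXK2 replicate 1. Of 12 mitosis and proliferation genes 8 (66.7%) rose, beside the same 25.8%, and 0 fell, with a median of 1.08. The shares of this list and of the E2F targets are likewise descriptions, from lists chosen with earlier results known. MKI67, the proliferation antigen Ki-67, went from 216 and 126 to 626 and 613 CPM, a log2 fold change of 1.86 (adjusted p = 0.000122, SE 0.27). With the A-content offset MKI67 was still called, at 0.77 (adjusted p = 0.0069).

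A further 14 genes encode ubiquitin ligases of these regulators, or proteins that work with or against them. Of these 3 (21.4%) rose and 4 (28.6%) fell, close to the shares over all tested genes. FBXW7, which targets cyclin E and MYC protein, rose from 16 and 9.66 to 33 and 38.6 CPM, a log2 fold change of 1.48 (adjusted p = 0.00105, SE 0.30). SKP2, which targets p27, had 0.76 (adjusted p = 0.0316, SE 0.27), a call lost without shCtrl replicate 1 (0.77), without shCtrl replicate 2 (0.71) or without shFOXK2 replicate 2 (0.55). With the GC-content offset SKP2 was at 0.40 (adjusted p = 0.156), and with the replicate block its adjusted p was 0.0655. CKS1B, its helper, had 0.43 (adjusted p = 0.188), or 0.76 (adjusted p = 0.0119) with the A-content offset. AMBRA1, which directs D-type cyclins to their ligase, had −1.84 (adjusted p = 5.54e-05, SE 0.25), from 107 and 124 to 33.8 and 30.7 CPM. RNF123, part of the second ligase of p27, also had −1.84 (adjusted p = 0.000127, SE 0.28). AMBRA1 and RNF123 were named after their values were seen, as were FBXO31 and the deubiquitinase USP28, also lower, and DTL, higher. Leaving out either shFOXK2 library (replicate 1 or replicate 2) left 2 lower genes. MDM2, another ubiquitin ligase gene and not of this list, measured 42.4 and 22.4 CPM in shCtrl and 27.8 and 34.7 CPM in shFOXK2, with the shFOXK2 libraries between the controls. Its log2 fold change of −0.05 (adjusted p = 0.91) became 0.44 without shCtrl replicate 1 and 0.10 without shFOXK2 replicate 1. Protein amounts were not measured in these libraries.

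To compare levels between the 10 genes, CPM were divided by the exon length of each gene in kilobases. In shCtrl CCND1 stood first at 102 ± 4.07 CPM per kilobase (SD, n = 2), above MYC at 22 ± 3.42 and E2F1 at 14.6 ± 2.82. E2F1 and CDKN1C (12.8 ± 2.74) overlapped, as did CDKN1A (9.7 ± 1.39) with CDKN1B (8.66 ± 0.209), and CDKN1B with CCND3 (8.11 ± 1.08). CCNE1 (2.98 ± 0.508), CCNE2 (0.361 ± 0.00906) and CCND2 (0.0867 ± 0.0123) followed with no overlap. The middle of this order rests on the length used, since by canonical transcript CDKN1B (33.3), CCND3 (23.1) and CDKN1C (18) had higher shCtrl means than E2F1 (14.6). In shFOXK2 the order per kilobase was CCND1 (124 ± 31.1), E2F1 (21.7 ± 4.17), MYC (10.7 ± 2.78), CCND3 (5.28 ± 0.811), CDKN1B (4.42 ± 0.465), CCNE1 (3.86 ± 0.571), CDKN1C (3.01 ± 0.117), CDKN1A (2.55 ± 1.34), CCNE2 (1.19 ± 0.19) and CCND2 (0.0285 ± 0.0278). E2F1 stood above MYC in shFOXK2 and below it in shCtrl, though with the canonical transcript length the pair overlapped in shFOXK2. In shFOXK2 the neighbours CCND3 and CDKN1B, CDKN1B and CCNE1, and CDKN1C and CDKN1A overlapped, and the other neighbours did not. CCNE1 (3.46 and 4.26) and CDKN1A (3.5 and 1.6), which are not neighbours in the order, also overlapped.

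Within families the same length-scaled counts gave each paralog's share, as a description. CCND1 held 92.6% ± 0.621 of D-type cyclin transcripts in shCtrl and 95.8% ± 0.418 in the shFOXK2 libraries (SD over 2 libraries), and CCND3 held nearly all of the remainder. CCNE2 held 12.3% (95% Wilson interval, for counting error only, 8.87 to 16.8) and 9.58% (6.49 to 13.9) of E-type cyclin transcripts in the shCtrl libraries. In the shFOXK2 libraries CCNE2 held 23.4% (18.5 to 29.2) and 23.7% (19.7 to 28.2), above both controls. These shares carry no composition offset. With the A-content offset the log2 fold change was 0.44 for CCNE2 and 0.72 for CCNE1, and with the GC-content offset 0.65 and 0.72. With either offset the value of CCNE2 was thus not above that of CCNE1, though the difference between the 2 genes was not tested. An offset also takes out any difference between the groups that follows composition. The part of composition or of INTS8 reads in the CCNE2 share was not tested. CDKN1B, the CIP/KIP member with the smallest fold change, went from 28% ± 3.22 to 44.7% ± 3.97 of the CIP/KIP transcripts, and CDKN1C from 40.9% ± 3.09 to 30.6% ± 4.74. By canonical transcript length CDKN1B held 51.4% and 68.7%, the largest share in both groups. Summed per kilobase, CIP/KIP transcripts were 28.1 and 34.3 CPM in shCtrl and 11.3 and 8.61 CPM in shFOXK2. D-type cyclin transcripts were 107 and 114 in shCtrl and 152 and 107 in shFOXK2, so their groups overlapped. D- and E-type cyclin transcripts per CIP/KIP transcript were 3.89 and 3.43 in shCtrl and 13.8 and 13.1 in shFOXK2. The groups did not overlap in this ratio, nor did those of 75.4% of all tested genes. Its divisor is the sum of the 3 inhibitors already called lower. Measured with the canonical transcript length these ratios were 2.26 and 2.13 against 6.81 and 6.16.

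**Figure D4:**
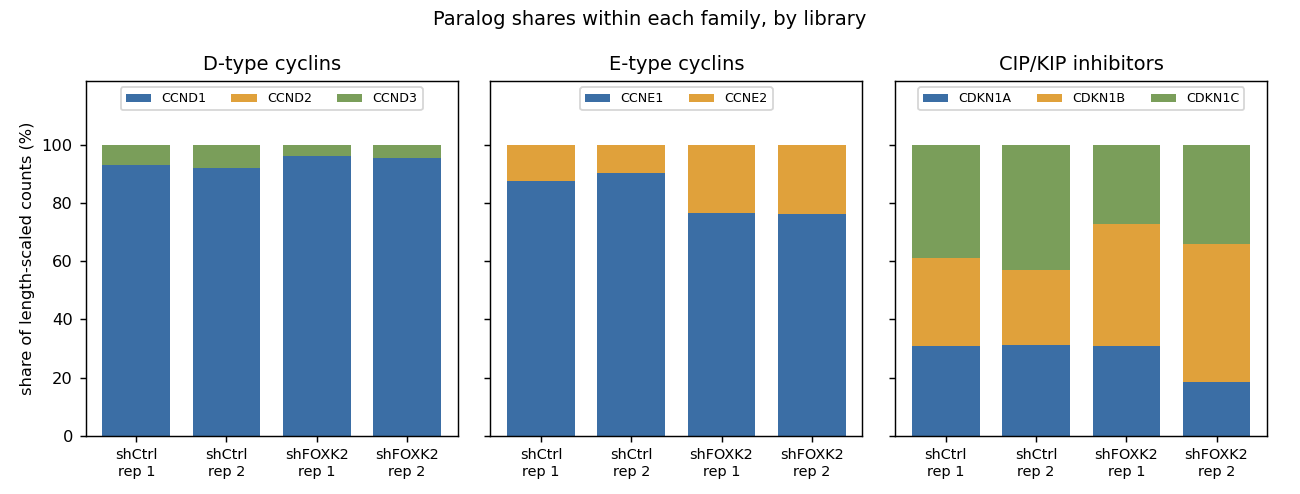
Share of each paralog (percent of length-scaled counts, vertical axis from 0) within the D-type cyclins, the E-type cyclins and the CIP/KIP inhibitors in each of the 4 libraries. CCND1 fills over 92% of its family in every library, and the CCNE2 share is 23.4% and 23.7% in shFOXK2 against 12.3% and 9.58% in shCtrl. The shares carry no composition offset.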

How the data were processed

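The authors isolated polyadenylated RNA, sequenced single-end libraries, aligned the reads to hg38 (GRCh38) with STAR 2.5.2 and counted them with HTSeq. They deposited raw counts per gene symbol, 1 table per library. The strand setting and annotation are not given in the sources used here, and the library kit is not named as strand-marking, so reads of overlapping genes on opposite strands cannot be told apart. Groups and replicate numbers came from the sample titles.

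Counts were filtered with filterByExpr, scaled by TMM and compared in R 4.3.3 by edgeR 4.0.16, using its quasi-likelihood model (F test, 2-sided, robust, Benjamini-Hochberg adjustment over all tested genes, threshold 0.05). The SE is the absolute log2 fold change over the square root of F. With 2 libraries a group an exact permutation cannot reach that threshold. The fit was also run on simulated counts with few changed genes, a common dispersion and no composition trend. These data are not of that kind, so that run checks the code and not the calls. Positions, exon lengths and composition came from GENCODE v44 on hg38. Of the tested genes 84.6% had a composition value. Offsets on composition were lowess trends with span 0.2, and genes with no value kept the plain offset. Promoter windows came from RefSeq (GRCh38.p14). DESeq2 1.42.0 and other settings were alternatives.

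The 10 genes, the gene lists and the partners named (CDK2, CDK4, CDK6, CDC25A, the INK4 genes, RB1, RBL1, RBL2, E2F2, E2F3, E2F4, E2F7, E2F8, MAX, MXD1, MXI1, MNT, MYCN, MYCL, FBXW7, SKP2, CKS1B, MDM2, CCNA2, ODC1, NCL and MKI67) were chosen whatever their values, but with earlier results of these data known. No search for genes of like pattern was made, since 4 libraries in 2 groups cannot resolve one. Lists are described by counts and medians, with no test of the list. Some planned genes and 1 planned list are not reported here. Replicates were separate libraries: a chi-square comparison of the pair gave, per gene, 38.1 for shCtrl and 27.9 for shFOXK2, far above what counting error gives. The labels call them biological duplicates without naming separate cultures, so p-values measure the spread between these libraries.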

Additional observations from a re-analysis of the deposited data

How the results depend on the processing

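MYC, CDKN1A, CDKN1B and CDKN1C kept direction and call in each of 11 alternatives and in each of the 4 fits without 1 library. For the 10 regulators over the 11 alternatives, 91 values kept direction and side of the threshold, 4 (CCNE2 under composition offsets) lost the call, 14 gained one and 0 reversed. At least 10 counts in every library left no value for CCND2. The count of all genes called, 7979, ran from 6022 to 9023 over the alternatives and from 6653 to 7427 without 1 library. Of the regulators 5 to 7 were called over the alternatives, and 5 to 6 without 1 library. The number called higher, 1, was 3 with the GC offset, 3 with the A offset and 3 with either offset and the replicate block, and 1 to 2 without 1 library. The offsets moved the median of all tested genes by 0.11 (GC) and 0.15 (A), and no filter moved it by −0.10.

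Deviations from the group means were only weakly and negatively correlated between libraries that share a replicate number (correlation −0.113). The labels name nothing that a number marks. The number of genes past the threshold was 7314 with the replicate block, and 5 regulators were called. With the pairing crossed, chosen after seeing the data, the genes past the threshold numbered 8320.

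Among the lists, E2F targets called higher, 13, became 20 with the GC offset and 20 with the GC offset and the replicate block (9 to 14 without 1 library). The RB and E2F family had 7 higher with the GC offset, with or without the block, and 2 with no filter (1 to 4 without 1 library). In the MYC network 1 gene was higher with at least 10 counts in every library, 1 with the GC offset, 1 with the A offset, 1 with the A offset and block and 2 with the GC offset and block (0 to 1 without 1 library), and 2 were lower by DESeq2 and 2 with the A offset and block. Of the G1 kinases and activators 1 was lower with the A offset, with or without the block. Turnover genes had 5 higher with the A offset, 6 with the A offset and block, 2 lower with the block and 2 to 4 lower without 1 library. INK4 genes had 0 to 1 lower without 1 library. MYC targets called higher ran from 19 to 22 over the alternatives and from 16 to 19 without 1 library.

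CDK4 (−0.31) turned to 0.03 (GC offset), 0.05 (A offset), and 0.02 and 0.04 with each offset and the block. RB1 reversed to −0.43 (GC), −0.41 (A), −0.41 (GC and block) and −0.38 (A and block), and ran from −0.20 to 1.02 without 1 library. MDM2 reversed to 0.01 with the block and 0.01 with the crossed block, and ran from −0.44 to 0.44 without 1 library. Of the partners, 21 values (of E2F7, E2F8, MXD1, MYCL, SKP2 and CDK6) lost a call, 15 (of CDK2, E2F3, E2F4 and CKS1B) gained one and 10 reversed over the alternatives. None of CDK4, RB1 and MDM2 passed under a reversed value. The causes were not tested.

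With canonical transcript lengths CCND1 held 83.2% and 90.2% of D-type cyclins in shCtrl and shFOXK2, CCNE2 13.8% and 28.7% of E-type cyclins and CDKN1C 27.5% and 17.1% of CIP/KIP transcripts. Levels per kilobase of CDKN1B became 33.3 and 17, and those of CCND3 23.1 and 15. MYC and CDKN1B then overlapped in shCtrl, as did CDKN1C with E2F1 and E2F1 with CDKN1A. In shFOXK2 MYC overlapped with E2F1 and with CDKN1B, while E2F1 and CDKN1B did not overlap. There CDKN1B also overlapped with CCND3, and CDKN1C with CDKN1A. Depth limits CCND2 and MYCN, whose counts are near the floor.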
